A study of Mus musculus with 8 samples.

Results

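The Ube2 genes, most of which encode ubiquitin-conjugating enzymes (E2 enzymes), were taken as every entry of the 2 deposited liver expression tables whose symbol begins with Ube2. There were 34 such genes among the 13774 listed in the table for Ube3a overexpression and 31 among the 11773 listed in the table for Ube3a heterozygosity. All 31 were in both tables, and Ube2c, Ube2t and Ube2ql1 were listed in the first table only. GENCODE M21 holds 37 protein-coding genes with such a symbol. The 3 in neither table are Ube2d2b, Ube2dnl1 and Ube2dnl2. One of the 34, Ube2cbp, is a protein that binds UBE2C and not a conjugating enzyme, and it is kept because the symbol rule selects it.

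Ubiquitin is attached to proteins through a relay in which an E1 enzyme activates it, an E2 enzyme carries it as a thioester, and an E3 ligase brings the E2 to the substrate. The E2 often decides which kind of chain is built, and a few E2 enzymes carry ubiquitin-like proteins such as SUMO, NEDD8 and ISG15 in place of ubiquitin. UBE3A is a HECT-type E3 ligase that takes ubiquitin from its E2, classically UBE2L3 or a member of the UBE2D class, onto its own cysteine before passing it to a substrate.

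RNA was sequenced from livers of C57BL/6 mice fed a diet with 42% fat for 8 weeks, and all 4 groups received that diet. Mice labelled Ube3a TG homo, which overexpress Ube3a from a transgene (called TG here), were compared with WT mice, 2 libraries each. Mice labelled Ube3a het, with 1 knockout and 1 wild-type allele (het here), were compared with a separate pair of WT libraries, again 2 against 2. The study's title describes UBE3A as acting against steatosis by having the chromatin regulator MLL4 degraded. The labels used here do not give the promoter of the transgene, the age or sex of the mice, or whether replicate libraries stem from different mice, so p-values measure the spread between these libraries, which may be technical. In whole liver, fewer cells of a type and less RNA per cell cannot be told apart.

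Values are normalised reads, that is, read counts divided by a factor for each library. The recovered totals ran from 44193275 to 47928229 reads per library in the TG table, and the het table was shallower, with 13171145 to 17748088. The 2 tables were normalised separately, so each genotype was read against the WT pair of its own table. Ube3a stood at 1187 and 1359 normalised reads in WT against 5991 and 5938 in TG (log2 fold change 2.23, limma adjusted p = 0.0586), and at 369 and 409 against 301 and 280 in het (-0.42, limma adjusted p = 0.129), so its direction followed the labels in both tables although neither difference passed the threshold. All 6 hepatocyte markers checked were listed in both tables, with summed levels of 3260200 to 4467900 normalised reads in the TG table.

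The promoters of 3 genes are shown first because these genes had the largest differences of the family in TG, Ube2c and Ube2t being lower and Ube2ql1 higher. Ube2ql1 was listed only through its TG libraries, so it had to differ to be in the table. Each run is the 250 bases before the RefSeq start on GRCm38.p6, 5′ to 3′ on the strand of the gene. Capitals mark CCAAT (or its reverse, ATTGG) and the cell-cycle homology element TTTGAA (or its reverse, TTCAAA), which are common in promoters of genes expressed in dividing cells. The Ube2c window is chr2:164769679-164769928 on the plus strand, one in which the GENCODE model of the gene already begins. The Ube2t window is chr1:134962315-134962564 on the plus strand and that of Ube2ql1 is chr13:69739898-69740147 on the minus strand.
Ube2c: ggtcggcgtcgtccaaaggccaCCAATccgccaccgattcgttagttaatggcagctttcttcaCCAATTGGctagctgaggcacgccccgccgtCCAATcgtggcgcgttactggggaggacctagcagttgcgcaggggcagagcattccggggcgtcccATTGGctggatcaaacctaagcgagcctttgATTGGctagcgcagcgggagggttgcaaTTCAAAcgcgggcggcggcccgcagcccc
Ube2t: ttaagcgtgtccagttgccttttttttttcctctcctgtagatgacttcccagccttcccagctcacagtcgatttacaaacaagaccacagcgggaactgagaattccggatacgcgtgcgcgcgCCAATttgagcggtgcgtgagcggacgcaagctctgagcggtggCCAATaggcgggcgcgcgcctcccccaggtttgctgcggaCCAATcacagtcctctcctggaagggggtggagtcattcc
Ube2ql1: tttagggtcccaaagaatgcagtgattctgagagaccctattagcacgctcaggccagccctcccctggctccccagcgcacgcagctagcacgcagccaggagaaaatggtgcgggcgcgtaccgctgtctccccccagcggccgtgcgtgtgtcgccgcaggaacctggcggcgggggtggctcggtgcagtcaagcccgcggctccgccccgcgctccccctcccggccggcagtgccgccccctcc

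The Ube2c window held 6 matches to CCAAT over both strands, one pair of them sharing bases, and 1 match to TTTGAA, whose bases lie 29 to 24 before the start. The Ube2t window held 3 matches to CCAAT and none to TTTGAA. Neither motif was found in the Ube2ql1 window. Among 32851 RefSeq promoter windows of this length, 33.8% held at least 1 CCAAT, 0.84% held at least 4, and 16.0% held TTTGAA. RefSeq windows were matched for 27 of the 34 genes, 38 windows in all, of which 7 held CCAAT and 3 held TTTGAA. Ube2c was the only gene of the family with 4 or more CCAAT matches in a window. The family's windows had a median GC content of 69.4%, from 42.8% to 83.2%, against 52.4% over all windows, and a median CpG observed-to-expected ratio of 0.856 against 0.373. No entry was matched for Ube2d2a, Ube2e3, Ube2g2, Ube2o, Ube2v2 and Ube2w, among others. These matches describe the letters of the windows only.

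In WT liver the family spanned a wide range of levels, which were set between genes as normalised reads per kb of annotated exon. Ube2l6, the E2 for the interferon-induced modifier ISG15 that also carries ubiquitin, was highest, at 2184 and 1924 per kb in the WT pair of the TG table. Ube2b, which works with RAD18 and RNF20 in DNA damage tolerance and histone H2B ubiquitination, followed at 1980 and 1876 per kb. Ube2r2, an E2 of cullin-RING ligases, came next at 1248 and 1108 per kb. The WT libraries of Ube2l6 and Ube2b overlapped in level, and those of Ube2r2 lay below both.

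At the other end stood Ube2j2, an E2 anchored in the endoplasmic reticulum membrane, at 19.7 and 20.4 per kb. Ube2t, the E2 of the Fanconi anaemia pathway, stood at 7.44 and 4.81 per kb. Ube2ql1, a relative of Ube2q1 whose function is less studied, was lowest at 6.36 and 0.756 per kb. The mean WT levels differed 577.5-fold between the highest and lowest gene in the TG table, and the 5 highest genes held 48.6% of the family's summed level per kb. Going down this order, neighbouring genes overlapped in their WT libraries at 20 steps and were separate at 13. In the het table the corresponding counts were 16 and 14, over a 175.1-fold range.

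The order of levels was nearly the same in the 2 WT pairs (Spearman rho 0.996 over 31 genes, a description over genes that share length and base composition). It depended more on the length used. Ube2d3, an E2 with broad partners including UBE3A, ranked 16 per kb of its exon union of 24499 bases but 1 per kb of its median coding transcript. Ube2d2a, of the same class, ranked 22 on the first scale and 5 on the second. Over all 34 genes the 2 length scales gave orders with a Spearman rho of 0.749.

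**Figure D1:**
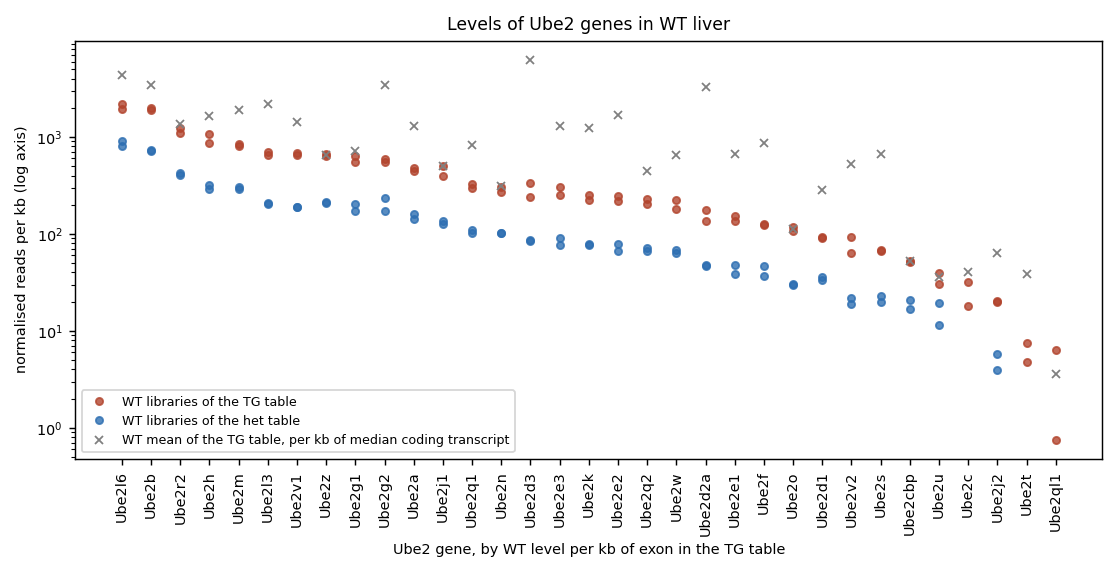
Levels of 33 of the Ube2 genes in WT liver, in normalised reads per kb on a log axis. Points are the 2 WT libraries of each table per kb of exon union, crosses are the mean of the WT pair of the TG table per kb of median coding transcript, and genes run from Ube2l6 (highest, 2184 and 1924 per kb) to Ube2ql1 (lowest, 6.36 and 0.756 per kb). The tables were normalised separately, so the vertical distance between the colours is not a difference in expression.

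Neither overexpression nor heterozygosity of Ube3a was followed by a difference in any Ube2 gene that passed the test. With limma, 0 of 34 genes had an adjusted p under 0.05 in TG, where 0.0% of all genes did, and 0 of 31 in het, where 1.44% did. At an unadjusted p under 0.05 there were 5 genes in TG (2 higher, 3 lower, one of the higher being Ube2ql1, whose WT mean lies below the lowest mean the table lists), where 9.12% of all genes reached that level, and 1 gene in het (lower), where 14.7% did. On the recovered reads, edgeR's quasi-likelihood test called 0 members in either comparison. Over all genes it called 0 of 13774 in TG and 182 of 11773 in het. At an unadjusted p under 0.05 edgeR gave 4 members in TG and 1 in het (the share of all genes is not given for edgeR). DESeq2 called 0 members in het, where it called 289 genes in all. In TG it called 1 member, Ube2c, where it called 1.42% of the genes to which it gave an adjusted p.

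The family's summed level also stayed within a narrow range. In the TG table it was 57072 and 60402 normalised reads in WT and 57961 and 61570 in TG. In the het table it was 19276 and 19508 in WT and 19106 and 19431 in het. The groups overlapped in both tables, and the family took 0.125% to 0.135% of all normalised reads in libraries of the TG table (0.125% to 0.131% for het).

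Among single genes the median log2 fold change was -0.03 in TG (14 higher, 20 lower), beside 0.001 over all genes, and 0.01 in het (19 higher, 12 lower), beside -0.001. In TG 31 of the 34 genes lay within 0.5 of no difference on the log2 scale, where 85.8% of all genes did, and in het 31 of 31 did, where 91.1% of all genes did. The 95% interval of the fold change lay wholly within 1.5-fold in either direction for 22 of 34 genes in TG and for 27 of 31 in het. For 31 genes in TG and 28 in het it lay within 2-fold. A member outside those counts could differ by more than that without passing at this number of libraries.

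Both TG libraries lay above both WT libraries for 4 genes, where 21.8% of all genes did so, and below both for 8, where 21.6% did. The 4 include Ube2ql1, whose WT mean lies below the lowest mean the table lists, so that it was listed only through its TG libraries. In het, 6 genes lay wholly above WT, where 24.3% of all genes did, and 4 wholly below, where 23.7% did. The remaining 22 genes in TG and 21 in het overlapped WT. Replicates of the family differed from each other by a median of 0.169 on the log2 scale in WT and 0.166 in TG, and by 0.112 and 0.124 in the het table.

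**Figure D2:**
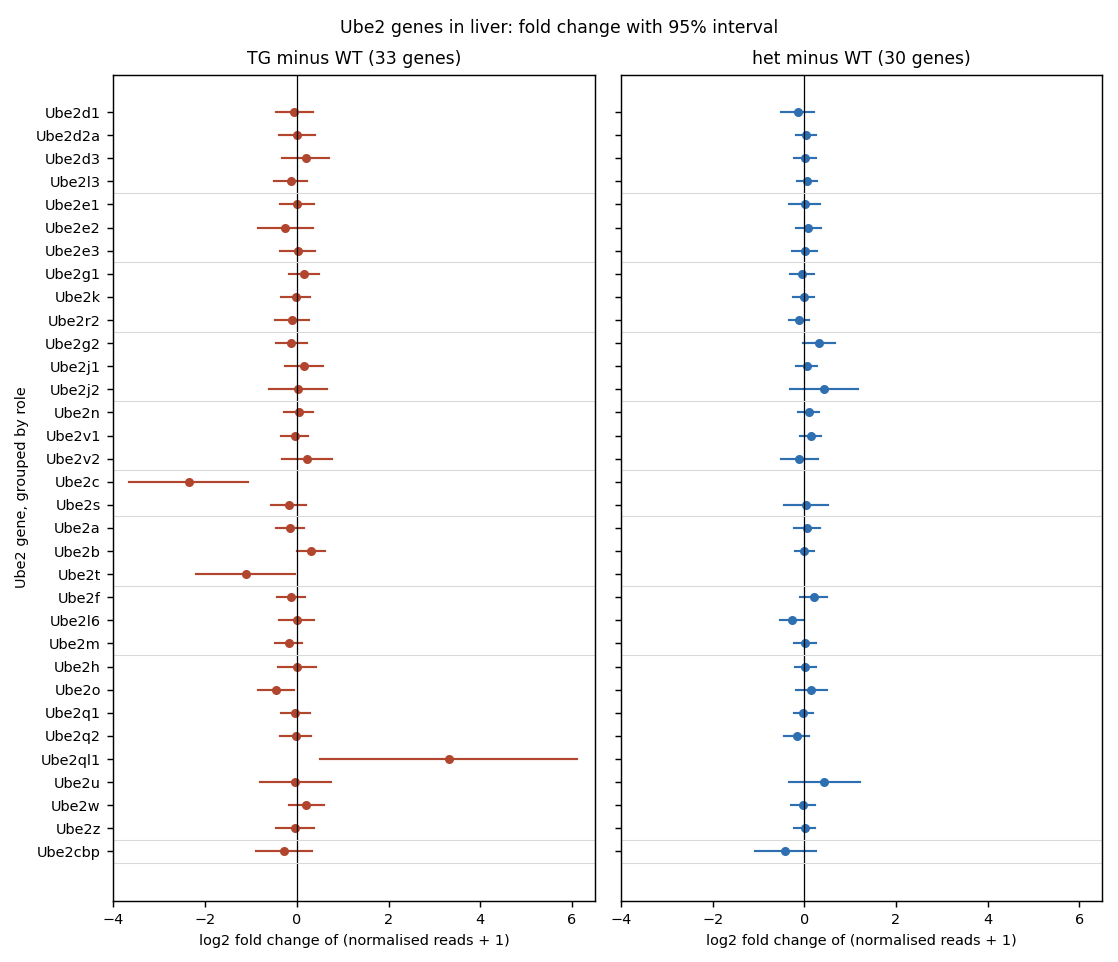
Log2 fold change of normalised reads plus 1 for the Ube2 genes shown in TG (left, 33 genes) and het (right, 30 genes) against the WT pair of the same table, 2 libraries per group. Points are estimates, bars are 95% intervals from limma, and grey lines separate roles. Only Ube2c (-2.36), Ube2t (-1.12) and Ube2ql1 (3.31) lie beyond 1 in either direction, all in TG, and no gene shown passed the adjusted threshold. Ube2ql1 was listed only through its TG libraries.

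The E2 enzymes taken here as partners of UBE3A (Ube2l3, Ube2d1, Ube2d2a and Ube2d3) overlapped WT in every comparison. Ube2l3, the classical partner, was at 3815 and 4054 normalised reads in WT and 3287 and 3932 in TG, a log2 fold change of -0.13 with a 95% interval of -0.49 to 0.23. In the het table it was at 1218 and 1198 in WT and 1187 and 1332 in het (0.06, -0.17 to 0.28). The intervals leave room for differences of moderate size in TG and for smaller ones in het.

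Ube2d1, which builds chains with many RING ligases, was at 398 and 407 in WT and 353 and 427 in TG, and at 158 and 145 in WT against 148 and 125 in het. Ube2d2a, a close relative, was at 1587 and 2036 in WT and 1747 and 1854 in TG, and at 534 and 557 against 550 and 564 in het. Ube2d3 was at 5843 and 8253 in WT and 7864 and 8004 in TG, and at 2081 and 2125 against 2275 and 1981 in het. For these 3 genes the ranges of WT and mutant libraries overlapped in both tables, and the log2 fold changes ran from -0.05 to 0.19 in TG and from -0.15 to 0.03 in het. The class has near-identical members and pseudogene copies (Ube2d4 and Ube2d-ps in the annotation), between which reads may be split, so the values of single members are uncertain.

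The UBE2E class, E2 enzymes with an added amino-terminal extension, also overlapped WT throughout. Ube2e1 and Ube2e3 differed by 0.01 and 0.02 in TG on the log2 scale and by 0.01 each in het. Ube2e2 was at 1011 and 1147 in WT and at 725 and 1127 in TG, so that only 1 of the TG libraries lay below WT.

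Enzymes that build K48-linked chains, the main signal for the proteasome, or that serve cullin ligases showed no difference beyond replicate spread that passed. Ube2g1, a K48-chain enzyme, lay wholly above WT in TG, with a log2 fold change of 0.16, and overlapped it in het (-0.05). Ube2k, another K48-chain enzyme, had -0.02 in both. Ube2r2 was at 1781 and 1700 normalised reads in WT and 1538 and 1651 in het (log2 fold change -0.13, limma adjusted p = 0.578), with both het libraries below both WT libraries, and it overlapped WT in TG.

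Of the E2 enzymes of endoplasmic reticulum associated degradation, Ube2g2, which works with the membrane ligase SYVN1, was at 571 and 421 normalised reads in WT and at 589 and 633 in het. Both het libraries lay above both WT libraries, the nearer by a margin smaller than the gap between the WT libraries. The log2 fold change was 0.31 (SE 0.15, limma adjusted p = 0.381), and it was 0.10 without WT replicate 2 and 0.53 without WT replicate 1. In TG Ube2g2 was at 1328 and 1425 in WT and 1184 and 1358 in TG, which overlap. Ube2j2, near the lower limit of the het table, was at 17.6 and 25.6 in WT and 30.2 and 27.6 in het (0.43, 95% interval -0.32 to 1.17). Ube2j1, the other membrane-anchored member, overlapped WT in both tables, with log2 fold changes of 0.15 for TG and 0.05 for het.

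K63-linked chains, used in DNA repair and inflammatory signalling, are built by UBE2N together with the inactive variants UBE2V1 and UBE2V2. The log2 fold changes, TG first and het after it, were 0.04 and 0.10 for Ube2n, -0.05 and 0.13 for Ube2v1, and 0.21 and -0.12 for Ube2v2. In TG all 3 overlapped WT. In het, Ube2n and Ube2v1 lay wholly above WT and Ube2v2 overlapped it, with a smallest limma adjusted p of 0.595 among the 3.

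The 2 enzymes of the anaphase-promoting complex, the ligase that drives exit from mitosis, were both lower in the TG libraries. Ube2c, which places the first ubiquitins on its substrates, was at 82.0 and 46.5 normalised reads in WT and at 7.80 and 16.0 in TG. Both TG libraries were below both WT libraries, from recovered reads of 82 and 46 in WT and 8 and 16 in TG. The log2 fold change was -2.36 (SE 0.51, 95% interval -3.66 to -1.06), with an adjusted p of 0.445 by limma, 0.451 by edgeR's quasi-likelihood test and 0.0321 by DESeq2. Of the 15 alternative settings for TG, 13 tested Ube2c, and of these only DESeq2 called it. The minimum mean CPM of 5 left it out, and the joint fit held only genes of both tables. Ube2c (chr2:164769898-164778822 on GRCm38, plus strand) overlaps Tnnc2 on the opposite strand, and whether the authors counted with strand is not given in the sources used here.

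Ube2s, which extends the chains that Ube2c starts, was at 342 and 353 in WT and 313 and 301 in TG (log2 fold change -0.18, limma adjusted p = 0.717). Its TG libraries were both below WT, and in het it overlapped WT. Ube2s overlaps Rpl28 on the opposite strand, so reads of the 2 genes may be mixed. Ube2cbp was at 94.0 and 91.9 in WT and 69.2 and 85.1 in TG, and at 37.1 and 29.7 in WT and 25.0 and 24.2 in het. Both mutants lay below their WT pair for this gene, at -0.27 (limma adjusted p = 0.735) and -0.42 (limma adjusted p = 0.553).

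Of the 16 subunits and activators of the complex listed in TG, 12 were lower and 4 higher, 0 passed (2 at an unadjusted limma p under 0.05, where 9.12% of all genes reached that level), and the median log2 fold change was -0.11. Cdc20, the mitotic activator, was at 42.0 and 30.3 in WT and 12.7 and 15.0 in TG (-1.31, limma adjusted p = 0.524). Anapc2, the cullin subunit, was at 2553 and 2476 in WT and 2016 and 2101 in TG (-0.29, limma adjusted p = 0.544). In het, 8 of 15 were higher with a median of 0.04.

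Ube2t was at 36.0 and 23.2 normalised reads in WT and at 13.6 and 12.0 in TG. Both TG libraries lay below both WT libraries, the log2 fold change was -1.12 (SE 0.43, 95% interval -2.20 to -0.03), and the limma adjusted p was 0.542. Ube2t lies at chr1:134962565-134974162 on GRCm38, plus strand.

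Most genes of dividing cells had the same sign as Ube2c and Ube2t in TG. Of 18 proliferation genes listed there, 16 were lower in TG, with a median log2 fold change of -0.85 and 0 calls. Both TG libraries lay below both WT libraries for 12 of them, where 21.6% of all genes did so. The 12 include Aurkb, whose TG mean of 10.5 lies below the lowest mean the table lists, 11.2. Aurkb was thus listed only through its WT libraries and had to be lower to be in the table. At an unadjusted limma p under 0.05 there were 8, where 9.12% of all genes reached that level. The summed level of the 18 genes was 4940 and 3929 normalised reads in WT and 3119 and 3070 in TG. Mcm4, a subunit of the replicative helicase, was at 447 and 379 in WT and 187 and 194 in TG (-1.11, limma adjusted p = 0.276). Aurka (-0.25), Mki67 (-0.10), Ccna2 (-0.10), Bub1b (-0.01) and Pcna (0.14) overlapped WT, and Rrm2 (0.85) lay wholly above it. All 8 endothelial and all 8 Kupffer cell and macrophage markers were lower in TG as well, with summed levels of 12489 and 12220 in WT against 10195 and 10114, and of 24541 and 22340 against 14702 and 19333. Of the other cell types, 6 of 7 lymphocyte markers were lower (median -0.32), and Alas2, the erythroid marker listed, lay wholly below WT (-0.76). All 6 hepatocyte markers were higher (4 wholly above WT, where 21.8% of all genes were, median 0.30), as were 6 of 8 stellate cell markers (median 0.16). Of 5 cholangiocyte markers 4 were lower (median -0.22), while Sox9 lay wholly above WT (0.94). All 4 mesothelial markers were higher (median 0.27). None of these markers passed in TG. The part of these cells in the values of Ube2c and Ube2t was not tested.

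In het, where Ube2c and Ube2t were not listed, 14 of 15 proliferation genes were higher, with a median of 0.26 and 0 calls. Of the 15 listed, 6 lay wholly above WT, where 24.3% of all genes did. At an unadjusted limma p under 0.05 there were 5, where 14.7% of all genes reached that level. The 6 include Bub1b and Ccna2, and the 5 include Bub1b. Their WT means of 13.6 (Bub1b) and 17.5 (Ccna2) lie below the lowest mean that table lists, 17.8. Both were thus listed only through their het libraries and had to be higher to be in the table. Mki67 was at 35.1 and 44.1 in WT and 77.6 and 95.5 in het (1.11, limma adjusted p = 0.0683). All 8 endothelial markers (1 of which, Lyve1, passed) and 7 of the 8 for Kupffer cells and macrophages were higher in het, with summed levels of 2956 and 3296 in WT against 3692 and 3781, and of 5092 and 6893 against 6183 and 8586. The 3 mesothelial markers listed there were lower, at a sum of 166 and 192 in WT and 43.1 and 54.1 in het. Upk3b and Gpm6a passed, and over all genes 1.44% passed in het. The het means of Upk3b (15.4) and Gpm6a (9.49) lie below the lowest mean that table lists. Both were thus listed only through their WT libraries and had to be lower in het to be in the table. Hepatocyte markers were lower for 4 of 6 and stellate cell markers for 6 of 8. The 2 lymphocyte markers listed were lower (median -0.24), and Spp1, the cholangiocyte marker listed, overlapped WT (0.02). Alas2 was at 506 and 690 in WT and 720 and 840 in het (0.40), wholly above WT. Cfd, the adipocyte marker listed, was at 1.95 and 13.3 in WT (a mean below the lowest that table lists) and 22.4 and 54.1 in het. Of the markers of these 5 cell types and Alas2, 0 passed. The part of these cells in the values of the Ube2 genes was not tested. Of the E2 enzymes of cell division, only Ube2s was listed in that table, at 117 and 102 in WT and 92.2 and 135 in het, with the het libraries on either side of WT.

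**Figure D3:**
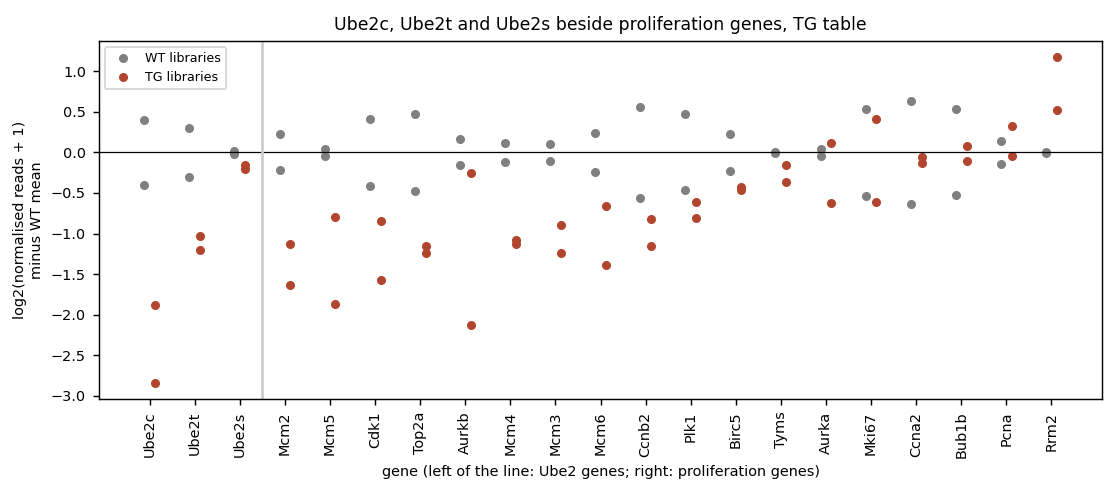
Ube2c, Ube2t and Ube2s (left of the line) and the 18 proliferation genes listed in the TG table (right), as log2 of normalised reads plus 1 minus the WT mean of the gene, each point a library (grey WT, red TG, 2 each). Both TG libraries lie below both WT libraries for the 3 Ube2 genes and for 12 of the 18, while Rrm2 lies above WT. The 12 include Aurkb, which was listed only through its WT libraries. Of all genes, 21.6% lie wholly below WT in TG.

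The other E2 enzymes of chromatin and DNA repair were Ube2a and Ube2b, which encode near-identical partners of RAD18 and RNF20. Ube2b was at 4210 and 3989 normalised reads in WT and 5191 and 4989 in TG. Both TG libraries were above both WT libraries, by more than the replicates differed, and the log2 fold change was 0.31 (SE 0.12, limma adjusted p = 0.544). In het it was at 1541 and 1577 in WT and 1554 and 1563 in het, a log2 fold change of 0.00 with a 95% interval of -0.21 to 0.21. Ube2a, its X-linked copy, had the other sign in TG, at 1016 and 1079 in WT and 959 and 931 in TG (-0.15, limma adjusted p = 0.703), and overlapped WT in het.

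Among the E2 enzymes for ubiquitin-like proteins, Ube2l6 had the smallest p of the family in het. It was at 1596 and 1826 normalised reads in WT and 1329 and 1510 in het. Both het libraries lay below both WT libraries, the log2 fold change was -0.27 (SE 0.11, 95% interval -0.52 to -0.02), and the limma adjusted p was 0.314. In TG Ube2l6 was at 4359 and 3841 in WT and 3761 and 4414 in TG, which overlap (log2 fold change -0.01).

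Ube2l6 is an interferon-induced gene, and of 16 other interferon-induced genes 11 were lower in het and 5 higher, with a median of -0.08 and 0 calls. At an unadjusted limma p under 0.05 there were 2, where 14.7% of all genes reached that level. The largest of the 5 higher ones were Rsad2 (0.60), Irf7 (0.23) and Ifit2 (0.20), each overlapping WT. Psmb8, an immunoproteasome subunit, was at 544 and 666 in WT and 434 and 452 in het (-0.44, limma adjusted p = 0.127). Uba7, the E1 of the same ISG15 pathway, was at 392 and 484 in WT and 334 and 397 in het, which overlap. Isg15 itself was at 202 and 247 against 147 and 216, which also overlap. In TG 13 of the 16 were lower, with a median of -0.26 and 0 calls, while Ube2l6 overlapped WT there. At an unadjusted limma p under 0.05 there was 1, where 9.12% of all genes reached that level.

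The NEDD8 enzymes Ube2m and Ube2f, which activate cullin ligases, were both slightly lower in TG. Ube2m was at 1882 and 2013 in WT and 1685 and 1761 in TG (-0.18, limma adjusted p = 0.655). Ube2f was at 1086 and 1118 in WT and 954 and 1052 in TG (-0.14), and at 408 and 325 in WT and 430 and 406 in het (0.20), where the groups overlap.

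The large or less studied members held the remaining low p-values. Ube2ql1 was at 17.0 and 2.02 normalised reads in WT and at 130 and 40.1 in TG. Both TG libraries lay above both WT libraries, but libraries of 1 group differed several-fold from each other, and the log2 fold change was 3.31 (SE 1.07, 95% interval 0.50 to 6.12, limma adjusted p = 0.534). The WT mean of 9.51 is below the lowest mean listed in the table, 11.2, so this gene was listed only through its TG libraries, with a mean of 84.8, and had to differ to be in the table. Leaving out each library in turn gave 2.02 to 4.60, the lowest without WT replicate 2 and the highest without WT replicate 1. Ube2ql1 lies at chr13:69702832-69739889 on GRCm38, minus strand.

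Ube2o, which acts as an E2 and an E3 in a single large protein and clears unassembled ribosomal proteins, was at 616 and 562 in WT and 397 and 469 in TG. Both TG libraries lay below both WT libraries, with a log2 fold change of -0.45 (SE 0.15, limma adjusted p = 0.534). In het it was at 161 and 157 in WT and 163 and 192 in het, both above WT, with a log2 fold change of 0.15 (limma adjusted p = 0.668).

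Ube2q2, a member with an extended amino-terminal part, was at 288 and 309 in WT and 277 and 253 in het (-0.17, limma adjusted p = 0.546), and overlapped WT in TG (-0.02). Ube2w, which can attach ubiquitin to the amino terminus of proteins, was at 884 and 1101 in WT and 1116 and 1165 in TG (0.21) and overlapped WT in het. Ube2h, Ube2q1 and Ube2z, which is charged by the alternative E1 UBA6, overlapped WT in both tables with log2 fold changes between -0.04 and 0.02. Ube2u, at 17.6 to 32.7 normalised reads in the het table, had a log2 fold change of 0.44 there with an interval of -0.34 to 1.21, and it overlapped WT in TG (-0.04).

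**Figure D4:**
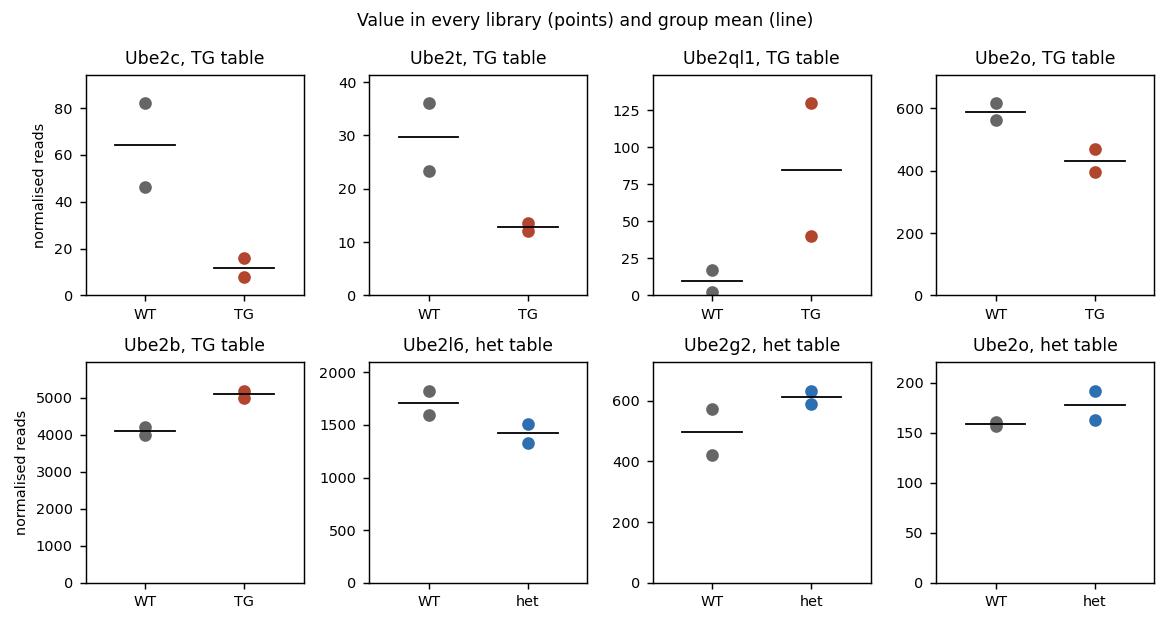
Normalised reads in every library for the 5 Ube2 genes of smallest p in TG, for the 2 of smallest p in het, and for Ube2o in het. Points are libraries, 2 per group, lines are group means, and each vertical axis starts at 0. Ube2ql1 spreads from 40.1 to 130 within TG, while Ube2b lies at 4989 and 5191.

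The responses to the 2 genotypes were compared by the difference of their log2 fold changes in a joint fit of all 8 libraries over 11754 genes. Of the 31 Ube2 genes 0 passed, where 0.434% of all genes did, and 2 had an unadjusted p under 0.05, where 16.7% did. At that level edgeR gave 2 Ube2 genes and DESeq2 1 (the share of all genes is not given for these tools). After adjustment both called 0 Ube2 genes, where edgeR called 44 and DESeq2 371 of the 11754 genes. The 2 Ube2 genes of the limma test were Ube2o, with a difference of -0.60 (SE 0.20, TG minus het, limma adjusted p = 0.218), and Ube2b, with 0.31 (SE 0.13, limma adjusted p = 0.288). Next came Ube2g2 at -0.43, Ube2f at -0.34 and Ube2l6 at 0.26, with limma adjusted p-values of 0.363, 0.397 and 0.521. The 95% interval of the difference lay within 1.5-fold for 15 of the 31 genes and within 2-fold for 27, so the responses of 4 genes could differ by more than 2-fold.

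The rest of the relay was read from lists of genes. Of 10 genes for E1 enzymes 6 were higher and 4 lower in TG, and 7 and 3 in het, with 0 calls in both (1 and 0 at an unadjusted limma p under 0.05). For this list and those that follow, the share of all genes at that level was 9.12% in TG and 14.7% in het. Sae1, a subunit of the E1 for SUMO, was at 1255 and 1187 in WT and 953 and 1019 in TG (-0.31, limma adjusted p = 0.542). Its partner Uba2 was at 1092 and 1249 in WT and 1368 and 1449 in TG (0.27), so the 2 subunits had opposite signs. Among the 4 ubiquitin genes 0 passed (0 in TG and 1 in het at an unadjusted limma p under 0.05). Ubb had the smallest p in het, at 518 and 485 in WT and 599 and 680 in het (0.35, limma adjusted p = 0.17), and was at 1547 and 1447 in WT and 975 and 1433 in TG.

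E2 enzymes and relatives with other names were 8 genes, with 5 higher and 3 lower in TG, 6 and 2 in het, and 0 calls (1 in each table at an unadjusted limma p under 0.05). Cdc34, the founding E2 of cullin ligases, had the smallest p of this list in both tables. It was at 2213 and 2386 normalised reads in WT and 1541 and 1878 in TG (-0.43, limma adjusted p = 0.534). In the het table it was at 700 and 699 in WT and 795 and 872 in het (0.25, limma adjusted p = 0.277). TG lay wholly below its WT pair and het wholly above its own for this gene. Birc6, a giant enzyme that joins E2 and E3 activity, lay wholly above WT in both tables, with log2 fold changes of 0.37 and 0.20.

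Of the 34 Ube2 genes, 17 overlap another annotated gene and 7 overlap a protein-coding one. They lie on 16 chromosomes, and reads of pseudogene copies of Ube2n and Ube2l3 may be counted in part with their parents.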

How the data were processed

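Liver RNA-seq of 8 libraries in 4 groups of 2 was used. The authors extracted RNA with Trizol and made TruSeq libraries, per the labels' protocols. Subread 1.5.2, featureCounts and DESeq2 appear in the submitters' processing notes. Neither annotation nor strand setting is given there. In the deposited tables the signal is a gene's read count over a library factor, since all values (100%) came out as whole reads to within 0.01. The tables list genes above a mean of about 11.2 (TG) and 17.8 (het) normalised reads, and hold 20 and 18 names turned into dates, which stayed in the tests unnamed.

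The main test was limma 3.58.1 (R 4.3.3, trend and robust) on log2(value + 1), fitted over all genes of a table, with Benjamini-Hochberg adjusted p under 0.05. A fold change on that scale understates the change of low genes. Alternatives were edgeR 4.0.16, DESeq2 1.42.0 and limma-voom on recovered reads, pseudocounts of 0.5 and 5, mean CPM of at least 5, TMM scaling, scaling without the 20 most abundant genes, no robust estimates, a joint fit, a replicate block and leaving out each library. Scripts were tested on simulated data. Positions and lengths came from GENCODE M21 (GRCm38), promoters from RefSeq (GRCm38.p6).

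The members and the lists were chosen with earlier results of these data known. Library values are given for members called, for the 5 of smallest p in each of 3 tests, for partners of UBE3A and for the 3 highest and 3 lowest per kb; other members are named by role, some with library values. From other lists, called genes or up to 3 of smallest p are named. Mki67 in TG, Rrm2, Uba7, Isg15, Ubb in TG, and Rsad2, Irf7 and Ifit2 in het were named after their values were seen. One member, counted in the family totals, is not reported here by name or drawn.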

Additional observations from a re-analysis of the deposited data

Results flagged for a closer look

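Ube2o was flagged for the difference between its log2 fold changes in the 2 genotypes. Both TG libraries (397 and 469 normalised reads) were below both of their WT libraries (616 and 562), and both het libraries (163 and 192) were above both of theirs (161 and 157). The nearest het and WT libraries, 163 and 161, were close, and the het log2 fold change of 0.15 had a limma adjusted p of 0.668. Cdc34, outside the symbol rule, also lay on opposite sides of WT in the 2 genotypes. The difference of the log2 fold changes was -0.6 (TG minus het), with a 95% interval of -1.07 to -0.13, and it did not pass after adjustment (limma adjusted p = 0.218, and 0.101 to 0.506 over the alternatives).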

How the results depend on the processing

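The count of Ube2 genes called was 0 under every alternative run for het and for the difference, and under all for TG except DESeq2, which called 1 (Ube2c, log2 fold change -2.44). Ube2c was not tested with a mean CPM of at least 5 or in the joint fit. The median log2 fold change in het, 0.014, was 0.01 with edgeR, 0.004 with limma-voom, 0.009 with TMM scaling and -0.004 with scaling that left out the 20 most abundant genes, and it ran from -0.002 to 0.019 on leaving out each library. The median in TG, -0.03, moved further. It was -0.06 with scaling that left out the 20 most abundant genes. On leaving out each library it ran from -0.12 without TG replicate 2 to 0.05 without TG replicate 1. The sign of the TG median thus depended on the library left out. With the replicate block, 0 members were called in each comparison. The same-numbered libraries correlated at 0.107 (TG table) and -0.043 (het table), which with 2 pairs a table does not settle whether a number marks a shared batch. The block moved calls over all genes in het from 169 to 138. Of 1053 single-gene values under alternatives, 75 had the other sign, 63 of them by no more than the standard error. The 12 others came from leaving out a library, and the cause was not tested. Over the leave-outs, the log2 fold change in TG ran for Ube2d2a from -0.18 to 0.18, Ube2d3 from -0.06 to 0.44, Ube2e2 from -0.57 to 0.07, Ube2j1 from -0.02 to 0.33, Ube2v2 from -0.06 to 0.49 and Ube2z from -0.23 to 0.15, and in het for Ube2e1 from -0.15 to 0.16, Ube2e3 from -0.12 to 0.14, Ube2g1 from -0.18 to 0.07, Ube2m from -0.09 to 0.12, Ube2s from -0.24 to 0.30 and Ube2v2 from -0.30 to 0.07. With 2 libraries a group, the lowest members (Ube2c, Ube2t, Ube2ql1, Ube2j2, Ube2u) had the widest intervals. The shallowest library, with 13171145 reads, was in the het table, where Ube2c, Ube2t and Ube2ql1 were not listed.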

Other observations

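Ligases that work with these E2 enzymes were listed 24 in number in TG (14 higher, 10 lower) and 23 in het (8 higher, 15 lower), with 0 calls in both (1 in each at an unadjusted limma p under 0.05). Rad18, the ligase that uses UBE2A and UBE2B in DNA damage tolerance, was at 52.0 and 55.6 normalised reads in WT and 25.3 and 31.1 in TG (log2 fold change -0.91, limma adjusted p = 0.534), where Ube2a was lower (-0.15) and Ube2b higher (0.31). Of the 23 ligases in het, 6 lay wholly below WT, where 23.7% of all genes did, and 5 wholly above, where 24.3% did. Rnf31 and Rbck1, subunits of the linear ubiquitin chain complex that works with UBE2L3, were among those wholly below. Rnf31 was at 372 and 302 in WT and 281 and 261 in het (-0.31, limma adjusted p = 0.329). Rbck1 was at 1147 and 1105 in WT and 864 and 1053 in het (-0.24, limma adjusted p = 0.374).

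Of 9 genes for ubiquitin-like proteins, 0 passed in either table (0 in TG and 1 in het at an unadjusted limma p under 0.05). Sumo2 was at 160 and 216 in WT and 151 and 123 in het (-0.45, limma adjusted p = 0.318), and at 475 and 746 in WT and 815 and 730 in TG, where the groups overlap.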
